A study of Mus musculus with 6 samples.

Results

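Very long gene loci were examined by RNA-seq in mouse neural progenitor cells (NPCs) that lack *Armc5* (KO NPCs) and in wild-type NPCs (WT NPCs). A locus was included where its name held 1 gene symbol, where it spanned at least 200000 bases between its first and last base, and where it reached at least 1 CPM (count per 1e+06 counts of the library) in at least 3 of the 6 libraries. Of the 59699 loci in the data, 51396 held a single symbol, 1190 of these were at least 200 kb long, and 921 also passed the CPM limit. The 269 long loci below that limit, of which 18 had no count in any library, were not described. Length and CPM, with no use of the genotypes, chose these 921 loci: they were selected on both measures.

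The 3 KO libraries carry the genotype label Armc5(-/-) and the 3 WT libraries the label WT. The cells came from ganglionic eminences at e13.5 and were expanded as neurospheres in epidermal growth factor at 20 ng/ml up to passage 2, and neither genotype received a treatment. The strain label of all 6 libraries is 129 sv X CD1, whereas the methods of the study describe another cross. The deletion was present in all cells of the KO mice, so that the KO NPCs derive from embryos that developed without ARMC5, and the replicates were described as 3 pairs of KO and WT cultures. KO and WT libraries are named by their number below.

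ARMC5 is a substrate adaptor of a CUL3 ubiquitin ligase that acts on subunits of RNA polymerase II (Pol II), the enzyme that transcribes mRNA genes. On a very long gene Pol II has to stay engaged for hours before a complete transcript is released, and elongation factors, topoisomerases and the splicing of long introns are known to matter more for such genes than for short ones. In the nervous system many very long genes encode cell adhesion proteins, axon guidance receptors, ion channels and synaptic scaffolds. The comparison of very long with short loci addressed whether RNA from very long genes differed in level when ARMC5 was missing. RNA-seq gives the amount of RNA in the cells and does not measure the movement of Pol II.

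Transcription of each locus starts at its promoter, and 4 promoters are shown. *Arl15* and *Suclg2* had the smallest unadjusted p values among the loci lower in KO NPCs (quasi-likelihood test of edgeR), and *Dnah9* had the smallest among those higher. *Mdga2*, also higher in KO NPCs but behind other loci by p, was picked for its little spread between libraries. Each is the run of 250 bases before the transcription start in RefSeq (GRCm38.p6), read in the direction of the gene, with matches to GGGCGG or its complement CCGCCC, the core of a GC box, and to TATAAA or its complement TTTATA, known as the TATA box, in capitals. The windows are chr13:113794258-113794507 on the plus strand for *Arl15*, chr6:95718847-95719096 on the minus strand for *Suclg2*, chr11:66168552-66168801 on the minus strand for *Dnah9* and chr12:67222550-67222799 on the minus strand for *Mdga2*.
*Arl15*: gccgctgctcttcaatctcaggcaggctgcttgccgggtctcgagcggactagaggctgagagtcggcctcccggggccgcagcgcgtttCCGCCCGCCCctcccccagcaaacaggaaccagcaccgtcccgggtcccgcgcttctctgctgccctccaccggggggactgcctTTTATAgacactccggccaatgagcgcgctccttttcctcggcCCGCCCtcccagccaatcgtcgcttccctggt
*Suclg2*: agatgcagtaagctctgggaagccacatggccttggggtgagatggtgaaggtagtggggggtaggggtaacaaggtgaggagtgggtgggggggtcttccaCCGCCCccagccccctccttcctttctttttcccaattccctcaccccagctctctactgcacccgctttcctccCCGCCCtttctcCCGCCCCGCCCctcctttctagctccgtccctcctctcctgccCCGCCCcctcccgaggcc
*Dnah9*: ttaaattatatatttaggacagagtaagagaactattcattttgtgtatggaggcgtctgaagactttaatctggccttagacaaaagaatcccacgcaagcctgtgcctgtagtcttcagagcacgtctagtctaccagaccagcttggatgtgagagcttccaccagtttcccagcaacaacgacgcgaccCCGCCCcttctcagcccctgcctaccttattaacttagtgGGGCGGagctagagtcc
*Mdga2*: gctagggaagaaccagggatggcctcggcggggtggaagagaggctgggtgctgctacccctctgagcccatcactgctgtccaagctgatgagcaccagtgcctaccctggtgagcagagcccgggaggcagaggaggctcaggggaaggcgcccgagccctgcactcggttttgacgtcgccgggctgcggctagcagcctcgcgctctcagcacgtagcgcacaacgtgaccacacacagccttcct

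The *Arl15* sequence holds 3 GGGCGG matches and 1 TATAAA match on either strand, that of *Suclg2* holds 5 GGGCGG matches, that of *Dnah9* holds 2, and that of *Mdga2* holds neither motif. A RefSeq window of 300 bases (250 before and 50 after the start) was matched to 696 of the 921 very long loci. Of these windows 62.8% held GGGCGG and 5.89% held TATAAA on either strand, against 64.6% and 6.99% of the windows of 3376 detected single-symbol loci under 20 kb (short loci), and 35.7% and 13.6% of all 32851 windows. Their median GC content was 62.7%, and 60.3% at the short loci. The promoter windows of very long and short loci were thus close to each other in these features.

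The libraries held between 52995791 (KO NPC 3) and 85170379 (KO NPC 1) counts at loci that name a gene. *Armc5* had 84, 119 and 43 counts in KO NPCs 1 to 3 and 1966, 2114 and 1797 in WT NPCs 1 to 3, so that the genotype labels held in every library. KO NPC 3 stood apart from the other 5 libraries: 4.89% of its counts fell on loci that name no gene (1.31% to 1.72% elsewhere), and its summed level of neural progenitor markers (9 of 11 tested, among them *Nes*, *Pax6*, *Hes1* and *Vim*) was 1963 CPM, against 3762 and 3866 CPM in the other KO NPCs and 3663 to 4128 CPM in the WT NPCs. Markers of the oligodendrocyte lineage (11 of 13 tested) summed to 5234 CPM in KO NPC 3, to 2496 and 3383 CPM in the other KO NPCs and to 2436 to 3147 CPM in the WT NPCs, and astrocyte markers (9 of 10 tested) to 4588, to 2128 and 2323, and to 2060 to 2598 CPM. Neuron markers (13 of 15 tested) summed to 821 to 1606 CPM in the KO and 836 to 1437 CPM in the WT NPCs. *Map2*, itself a very long locus, made up most of each sum. Some other neuron markers were highest in both libraries numbered 3. *Dcx* was at 21.3, 64.0 and 287 CPM in KO NPCs 1 to 3 and at 17.3, 44.4 and 231 CPM in WT NPCs 1 to 3. *Gad1* was at 66.3 CPM in KO NPC 3 and 39.2 CPM in WT NPC 3. *Stmn2*, *Nefl* and *Elavl4* were lower in KO NPC 3 than in KO NPC 2. Microglia and fibroblast markers summed to at most 1.32 and 6.03 CPM. None of the markers matched to a locus of its own was at 0 in all 6 libraries. Of them 0 had an unadjusted p under 0.05 (quasi-likelihood test of edgeR), where 0.943% of all loci tested were higher and 0.665% lower. The part of these differences in the results below was not tested, and in bulk libraries fewer cells of a type and less RNA per cell cannot be told apart. Results are therefore given with and without KO NPC 3. For most of those whose sign this turns they are also given without both libraries numbered 3, which leaves the pairs of replicate numbers whole.

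The 921 loci spanned 200081 bases (*Pcbp3*) to 2272182 bases (*Ptprd*), with a median of 310446, and 39 were at least 1 Mb long. The summed exonic length of a locus, a column of the table, had a median of 9220 bases, and the median share of the span was 2.66%. At the 5887 short loci, whose median span was 6467 bases, it was 57.4%. Chromosome 2 held 79 of the very long loci, chromosome 1 held 69 and chromosome X held 41. By biotype 904 were protein coding and 8 were processed pseudogenes. Just inside the length limit lay *Pcbp3* (200081 bases), *Rgs2* (200538) and *Prdx3* (201124), and just outside it *Atp9b* (199920), *Clec16a* (199540) and *Wdr36* (199320). At the CPM limit the third-highest CPM over the 6 libraries was 1.02 in *Nyap2*, 1.03 in *Col19a1* and 1.03 in *Pde8b*, just inside, and 0.994 in *Fstl5*, 0.983 in *Mtus2* and 0.955 in *Ccdc148*, just outside.

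The span of a locus in these data was not always the length of the gene that names it. The authors merged assembled transcripts with a reference annotation, and a locus runs from the first to the last base of all transcripts assigned to it. In the GENCODE M21 annotation of the same build (GRCm38), the gene was at least 200 kb long at 718 of the 921 loci, shorter than 200 kb at 203 and shorter than 20 kb at 73. *Tubb5*, which encodes a beta-tubulin, is annotated with 4386 bases and had a locus of 248808 bases, and *Hes6*, a transcription factor of neurogenesis, is annotated with 2556 bases and had a locus of 248970. The 203 extended loci are described separately below, since a long span there did not mean a long gene.

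Detection was broad. At 850 of the 921 loci CPM was at least 1 in all 6 libraries, at 29 in 5, at 20 in 4 and at 22 in 3. *Dnah9*, a dynein heavy chain of motile cilia, was the 1 locus that passed in the 3 KO libraries and in no WT library, so its inclusion already required that it differ. No locus passed in the 3 WT libraries alone. All 921 passed the filter on low counts of the test between genotypes. Very long loci took 6.95%, 7.12% and 8.57% of all counts in KO NPCs 1 to 3 and 7.03%, 6.96% and 6.83% in WT NPCs 1 to 3, so that KO NPC 3 was highest and the other 5 libraries lay within a narrow range. Short loci took 22.5% in KO NPC 3 and 24.3% to 24.6% in the other libraries.

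Of the 921 very long loci, 0 differed between KO and WT NPCs at an adjusted p under 0.05 in the quasi-likelihood test of edgeR, which called 0% of all 19089 loci tested. The smallest p adjusted by the Benjamini-Hochberg method among them was 0.983 in edgeR. DESeq2, which called 0.127% of the loci to which it gave an adjusted p, gave one to 913 of the very long loci and called 0 of these. The 8 to which it gave none include *Dnah9*, *Reln* and *Csmd1*. At an unadjusted p under 0.05, 8 were higher in KO NPCs (0.869%, where 0.943% of all loci tested were higher) and 4 were lower (0.434%, where 0.665% of all were lower). Short loci gave 35 higher (0.595%) and 49 lower (0.832%). In this fit the shares among very long loci were near those among all loci. *Dnah9*, whose inclusion already required that it differ, is among the 8 higher. With the replicate number as a block the quasi-likelihood test again called 0. At an unadjusted p under 0.05, 18 very long loci were higher in that fit (1.95%, against 1.17% of all loci) and 5 lower (0.543%, against 0.87% of all loci), so that there the share higher was above that of all loci. The standard error of the log2 fold change had a median of 0.33 over the very long loci and 0.32 over the short ones, so the precision was alike.

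The likelihood ratio test, which does not allow for uncertainty in the dispersion of single loci, called 0 very long loci (0.0891% of all loci) without the block and 2 with it (0.217%, against 0.199% of all loci). These were *Suclg2* and *Dnah9*, and the inclusion of *Dnah9* already required that it differ. In each KO library above every WT library were 28 very long loci (3.04%, against 2.73% of all loci), and in each KO library below every WT library were 27 (2.93%, against 3.27% of all loci). Both counts were close to those over all loci, and the 28 include *Dnah9*.

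Among the loci lower in KO NPCs, *Arl15* (chr13:113794505-114157461), which encodes a small GTPase of the ARF-like family, was at 16.7, 28.4 and 16.9 CPM in KO NPCs 1 to 3 and at 49.98, 52.4 and 46.4 CPM in WT NPCs 1 to 3. The groups did not overlap, and the WT values were close to each other. Its log2 fold change of KO over WT NPCs was -1.26 ± 0.25 (SE) and -1.14 without KO NPC 3, with an adjusted p = 0.983 in the quasi-likelihood test of edgeR and 0.0524 by its likelihood ratio test blocked on the replicate number. *Suclg2* (chr6:95473009-95718800), the beta subunit of the GDP-forming succinyl-CoA ligase of the citric acid cycle, was at 66.2, 40.5 and 36.5 CPM in the KO NPCs and at 147, 91.8 and 106 CPM in the WT NPCs. Number 1 was highest in both groups, and the ratio within each number was alike. Its log2 fold change was -1.27 ± 0.30 (SE; -1.11 without KO NPC 3), with an adjusted p = 0.983 in the quasi-likelihood test of edgeR and 0.0316 by its likelihood ratio test blocked on the replicate number.

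*Cpq*, a secreted carboxypeptidase, was at 1.45, 2.20 and 1.76 CPM in the KO NPCs and at 3.58, 2.69 and 4.23 CPM in the WT NPCs, a log2 fold change of -0.96 ± 0.33 (SE). *Tcf12*, a basic helix-loop-helix factor that pairs with proneural proteins, was at 455, 513 and 404 CPM in the KO NPCs and at 610, 579 and 626 CPM in the WT NPCs, a log2 fold change of -0.40 ± 0.16 (SE). Both kept the KO values below the WT values in every library, with -0.94 and -0.32 without KO NPC 3. The next loci in this direction, *Hes6*, *Synpr*, *Flcn* and *Adamtsl3*, had unadjusted p values of 0.0521 to 0.0668. For *Synpr*, a protein of synaptic vesicles, 1 WT library set the value: it was at 1.80, 1.47 and 2.14 CPM in the KO NPCs, at 2.23 and 2.16 CPM in WT NPC 1 and 2, and at 18.5 CPM in WT NPC 3. Its log2 fold change of -2.09 was -0.44 without both libraries numbered 3.

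Among the loci higher in KO NPCs, *Dnah9* (chr11:65831282-66168551) was at 2.17, 2.76 and 24.985 CPM in the KO NPCs and at 0.0792, 0.0838 and 0.554 CPM in the WT NPCs, from 180, 201 and 1474 counts against 5, 6 and 38. Number 3 was highest in both groups, and every KO library exceeded every WT library. Its log2 fold change was 5.37 ± 1.41 (SE), with an adjusted p = 0.983 in the quasi-likelihood test of edgeR and 8.52e-18 by its likelihood ratio test blocked on the replicate number. Since *Dnah9* was included through its KO libraries alone, these p values are no independent support for a difference. Without KO NPC 3 the log2 fold change was 3.36, and without both libraries numbered 3 it was 4.88.

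*Cdc42bpa*, a kinase that acts downstream of CDC42 on the cytoskeleton, was at 187, 185 and 155 CPM in the KO NPCs and at 133, 124 and 109 CPM in the WT NPCs, a log2 fold change of 0.52 ± 0.16 (SE; 0.60 without KO NPC 3). *Mdga2*, an immunoglobulin-domain protein that binds neuroligins, was at 73.4, 81.7 and 84.8 CPM in the KO NPCs and at 63.3, 59.9 and 51.5 CPM in the WT NPCs, a log2 fold change of 0.46 ± 0.15 (SE; 0.41 without KO NPC 3). *Slit2*, a secreted ligand of ROBO receptors that repels axons, was at 20.7, 19.6 and 26.6 CPM in the KO NPCs and at 15.2, 16.3 and 9.96 CPM in the WT NPCs, a log2 fold change of 0.69 ± 0.25 (SE; 0.54 without KO NPC 3). In these 3 loci the groups did not overlap, and the difference kept its sign without KO NPC 3. At *Mdga2* and *Slit2* number 3 held both the highest KO and the lowest WT value. The other 4 loci of this set were *Fam172a* (log2 fold change 0.92, 0.98 without KO NPC 3), the endoplasmic reticulum protein *Tmcc3* (0.62, 0.41), the protocadherin *Pcdh11x* (0.59, 0.54) and the latrophilin *Adgrl3* (0.49, 0.34), an adhesion receptor of synapses. All 12 loci with an unadjusted p under 0.05 are annotated with a gene of at least 200 kb, and none of the 12 had an adjusted p below 0.983 in the quasi-likelihood test of edgeR. The 12 were chosen by p in these same libraries, so that groups without overlap are no independent support for a difference.

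**Figure D1:**
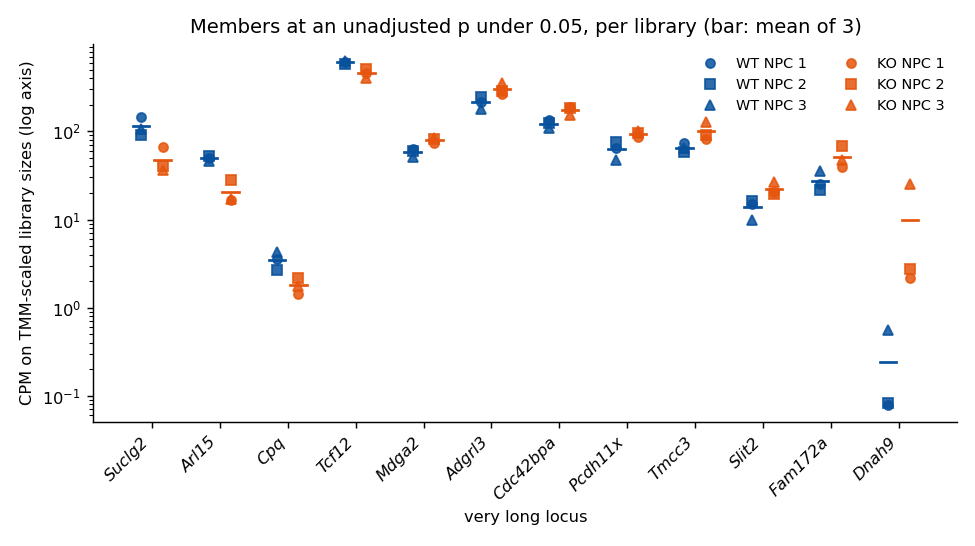
CPM (log axis) of the 12 very long loci with an unadjusted p under 0.05, in each WT library (blue) and KO library (orange), with marker shapes for the replicate number and a bar at the mean of 3. KO and WT libraries did not overlap at any of the 12 loci. These were chosen by p in the same libraries, so the lack of overlap is no independent support for a difference. Over all loci tested every KO library lay above every WT library at 2.73% and below at 3.27%. For *Dnah9* KO NPC 3 at 24.985 CPM sets the mean of the KO NPCs.

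The 921 very long loci had a median log2 fold change of 0.08, with an interquartile range of -0.17 to 0.35, and 538 of them (58.4%) were above 0. The median over all loci tested was -0.01. Short loci in the same bins of mean CPM, weighted by the number of very long loci in each bin, had a median of -0.09, so that very long loci lay 0.17 higher on the log2 scale than short loci of like CPM. Without KO NPC 3 the median of the very long loci was 0.00124 and the difference from short loci was -0.02. Without both libraries numbered 3 these were 0.00903 and -0.000536. When any one of the other 5 libraries was left out the difference was 0.15 to 0.28, so that KO NPC 3 was the 1 library whose removal ended it, and its highest value was that without KO NPC 1.

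The same contrast in each library gave this picture. The median deviation of log2 CPM from each locus's mean over the 6 libraries was -0.08, 0.07 and 0.17 for very long loci in KO NPCs 1 to 3 and -0.04, 0.02 and -0.00896 in WT NPCs 1 to 3. For short loci at matched CPM it was 0.09, 0.07 and -0.29 in the KO NPCs and 0.08, 0.06 and 0.07 in the WT NPCs. Very long loci minus short loci was therefore -0.17, 0.00401 and 0.46 in KO NPCs 1 to 3, a mean of 0.10 ± 0.33 (SD, n = 3), and -0.12, -0.03 and -0.07 in WT NPCs 1 to 3, a mean of -0.08 ± 0.04 (SD, n = 3). The KO values lay on both sides of the WT values, KO NPC 1 being the lowest of the 6 libraries and KO NPC 3 the highest. The difference between the means was smaller than the spread among the KO libraries.

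**Figure D2:**
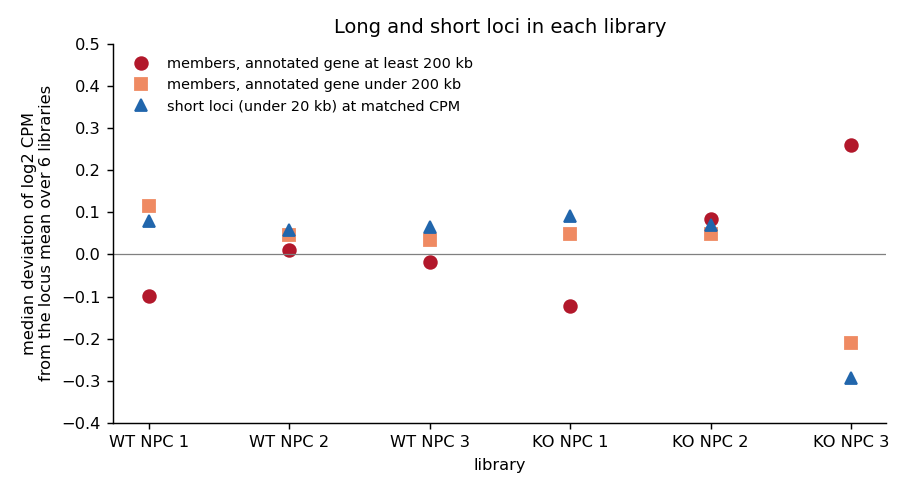
Median deviation of log2 CPM from each locus's mean over the 6 libraries (y axis), by library (x axis), for very long loci annotated with a gene of at least 200 kb (circles), very long loci annotated with a shorter gene (squares) and short loci at matched CPM (triangles). In KO NPC 3 the first stood at 0.26 while the others stood at -0.21 and -0.29, and in the other 5 libraries all lay between -0.12 and 0.12.

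Within replicate numbers, the median difference KO minus WT over the very long loci was -0.01 for number 1, 0.05 for number 2 and 0.19 for number 3. Over short loci at matched CPM it was 0.02, 0.01 and -0.34. The contrast of very long with short loci was thus -0.03 and 0.04 for numbers 1 and 2 and 0.53 for number 3. The share of very long loci higher in the KO library was 48.1% (443 loci), 58.6% (540 loci) and 57.5% (530 loci). Numbers 1 and 2 differed in sign and were both small beside number 3.

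KO NPC 3 was the highest of the 6 libraries at 384 very long loci (41.7%) and the lowest at 263 (28.6%). At short loci the order was turned, with 29.1% highest and 47.2% lowest. In KO NPC 3, 204 very long loci (22.1%) were at least 2-fold above the median of the other 5 libraries and 121 (13.1%) were at most 1/2 of it, against 13.7% and 17.5% of the short loci. Very long loci were therefore spread widely in both directions in this library.

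Examples from the ends of that spread, other than *Csmd1* and *Grm5* picked after their values were seen, are given next. *Csmd1*, a membrane protein of the nervous system with complement-control domains, was at 349 CPM in KO NPC 3 and at 10.7 to 20.7 CPM in the other 5 libraries, and its log2 fold change of 3.03 ± 1.32 (SE) was 0.02 without KO NPC 3. *Reln*, a secreted guidance protein of migrating neurons, reached 110 CPM in KO NPC 3 and 13.6 CPM in WT NPC 3 and lay between 2.47 and 5.48 CPM elsewhere. *Plk1*, *Tpx2* and *Nusap1*, which act in mitosis, were at 2.88, 11.4 and 8.80 CPM in KO NPC 3 and at 124 to 172, 219 to 268 and 162 to 182 CPM in the other 5 libraries. These 3 mitotic genes are annotated with 10435, 47358 and 32947 bases, so they count among the extended loci. *Grm5*, a metabotropic glutamate receptor annotated with 550740 bases, was at 10.4 CPM in KO NPC 3 and at 187 to 276 CPM in the other 5.

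With all 6 libraries the log2 fold change was higher in classes of longer loci. Its median log2 fold change was -0.06 at the 5887 loci under 20 kb, -0.05 from 20 to 50 kb (2908 loci), -0.03 from 50 to 100 kb (1746 loci), 0.03 from 100 to 200 kb (1194 loci), 0.04 from 200 to 400 kb (630 loci) and 0.19 at 400 kb or more (291 loci, of which 66.7% were above 0). Without KO NPC 3 the 6 medians lay between -0.00155 and 0.01, with no order by length. Without both libraries numbered 3 they lay between -0.0127 and 0.00445 in the classes under 400 kb, and the median at 400 kb or more was 0.0527. Across the 921 very long loci Spearman's rho between span and log2 fold change was 0.14, and 0.00183 without KO NPC 3. The points share the same 6 libraries, and this is a description over loci with no test.

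**Figure D3:**
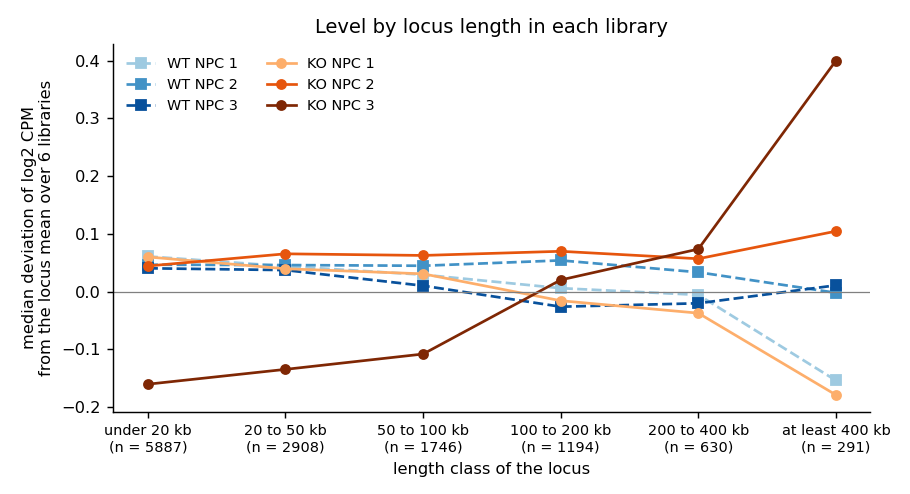
Median deviation of log2 CPM from each locus's mean over the 6 libraries (y axis) in 6 classes of locus length (x axis, number of loci below each), 1 line per library, WT dashed blue and KO solid orange to brown. KO NPC 3 ran from -0.16 under 20 kb to 0.40 at 400 kb or more, while KO NPC 1 and WT NPC 1 ended at -0.18 and -0.15.

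In the class of at least 400 kb the 6 libraries stood at -0.18, 0.10 and 0.40 for KO NPCs 1 to 3 and at -0.15, -0.00188 and 0.01 for WT NPCs 1 to 3. KO NPC 1 and WT NPC 1 were low together at the longest loci. Across the 921 very long loci the deviations from the group mean in a KO library correlated with those in the WT library of the same number at Pearson's r = 0.66, 0.25 and 0.34 for numbers 1, 2 and 3, and the highest r between different numbers was 0.20. These correlations are across loci of the same libraries and carry no test.

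The annotated length of the gene separated the very long loci. The 718 loci whose gene is annotated with at least 200 kb had a median log2 fold change of 0.14, 465 of them (64.8%) being above 0. The 203 extended loci had a median of -0.10, with 73 (36.0%) above 0, and the 73 whose gene is annotated with under 20 kb had a median of -0.16, with 14 above 0. Extended loci thus stood with the short loci and not with the genes of at least 200 kb. Without KO NPC 3 the medians of these 3 sets were -0.00154, 0.01 and 0.01, and without both libraries numbered 3 they were 0.0143, -0.00403 and -0.0182. Limiting the contrast to genes annotated with at least 200 kb and short loci annotated with under 20 kb gave a difference of 0.22, and -0.02 without KO NPC 3.

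**Figure D4:**
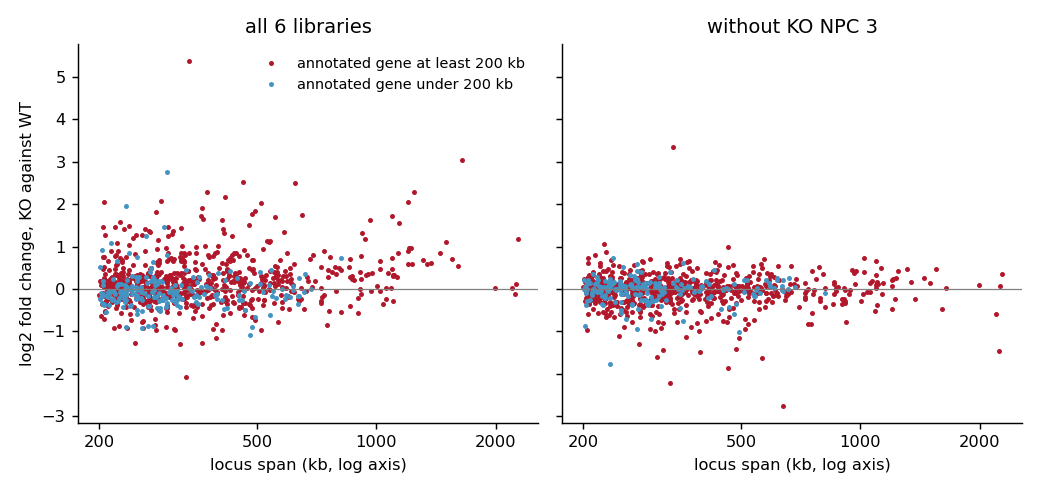
Log2 fold change, KO against WT (y axis), by span of the locus in kb (x axis, log scale) for the 921 very long loci, with all 6 libraries (left) and without KO NPC 3 (right), coloured by whether the annotated gene is at least 200 kb long. At 1 Mb and above 34 of 39 points lay above 0 on the left and 26 of 39 on the right.

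The 39 loci of at least 1 Mb had a median log2 fold change of 0.58, and 34 of them (87.2%) were above 0. At 27 of the 39 KO NPC 3 was the highest library. With KO NPC 3 left out the median was 0.12, with 26 above 0, and without both libraries numbered 3 it was 0.16. The median difference within replicate numbers was 0.25, 0.20 and 0.76. At these longest loci the KO library was thus higher at the median in all 3 numbers, but by much less in numbers 1 and 2. In the quasi-likelihood test of edgeR 0 of the 39 had an unadjusted p under 0.05, where 0.943% of all loci tested were higher and 0.665% lower.

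The 10 longest loci are all annotated as genes of more than 1 Mb and mostly encode adhesion proteins of neurons. *Ptprd*, a receptor tyrosine phosphatase that organises synapses, was at 40.4, 39.6 and 134 CPM in the KO NPCs and at 24.0, 38.5 and 31.5 CPM in the WT NPCs, a log2 fold change of 1.19 ± 0.53 (SE; 0.35 without KO NPC 3). Its KO values lay above all WT values, narrowly so in KO NPC 2. *Dmd*, which encodes dystrophin, was at 117, 83.9 and 110 CPM in the KO NPCs and at 112, 86.8 and 89.0 CPM in the WT NPCs, a log2 fold change of 0.11 ± 0.19 (SE), and *Macrod2*, an ADP-ribosyl hydrolase in a common fragile site, was at 7.54, 9.09 and 7.34 CPM against 5.51, 7.13 and 10.8 CPM (0.03 ± 0.30, SE). At *Dmd* and *Macrod2* the groups overlapped.

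*Lsamp*, an immunoglobulin-domain protein of limbic neurons, was at 60.0, 72.4 and 169 CPM in the KO NPCs and at 55.9, 148 and 92.9 CPM in the WT NPCs, and its log2 fold change turned from 0.02 to -0.58 without KO NPC 3. *Cntnap2*, a neurexin-like protein of the axon, was low, at 0.0482, 1.496 and 4.32 CPM in the KO NPCs and at 0.475, 1.91 and 4.01 CPM in the WT NPCs. Further loci among the 10 longest were higher in KO NPC 3 than in any other library: besides *Csmd1* these included *Nrxn3*, a presynaptic neurexin (log2 fold change 0.54, -0.48 without KO NPC 3 and 0.16 without both libraries numbered 3), *Pcdh15*, a protocadherin of hair cells (0.71, 0.46), and *Pde4d*, a phosphodiesterase of cyclic AMP (1.11, 0.14). Within the 10 longest loci span did not order the changes, since 4 of the 5 longest had log2 fold changes between -0.13 and 0.11.

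Per length of exon the very long loci differed widely in level. The mean CPM per kb of summed exonic length had a median of 3.72 over the 921 loci. *Gm28437*, a pseudogene with a near-identical copy in mitochondrial DNA, so that its reads cannot be assigned with certainty, was highest at 2957 CPM per kb, and the extended loci *Tpt1*, named after its value was seen, and *Tubb5* followed at 232 and 229 CPM per kb. Of the 10 longest, *Lsamp* was highest at 5.80 CPM per kb and *Cntnap2* lowest at 0.195. The NFI transcription factors *Nfib* and *Nfia* stood at 70.1 and 42.8 CPM per kb and the dendritic microtubule protein *Map2* at 53.8.

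Of the 10 very long loci with the highest CPM, 0 had an unadjusted p under 0.05 in the quasi-likelihood test of edgeR. Of all loci tested 0.943% were higher and 0.665% lower at that limit. *Nfib* was at 1115, 1012 and 969 CPM in the KO NPCs and at 1171, 1036 and 986 CPM in the WT NPCs, a log2 fold change of -0.04 ± 0.16 (SE), and *Nfia* was at 1041, 758 and 967 CPM against 1033, 782 and 749 CPM (0.11 ± 0.21, SE). Number 1 was highest in both groups for both genes. *Map2* was at 750, 761 and 907 CPM in the KO NPCs and at 1429, 726 and 742 CPM in the WT NPCs, so that WT NPC 1 alone stood high. *Ank2*, a membrane scaffold of axons, was at 1114, 1233 and 346 CPM in the KO NPCs and at 958 to 1204 CPM in the WT NPCs, and *Sdc3*, a heparan sulfate proteoglycan, was at 909, 701 and 170 CPM in the KO NPCs and at 693 to 775 CPM in the WT NPCs. Both had a log2 fold change of -0.31, which turned to 0.07 and 0.13 without KO NPC 3 and was -0.03 and 0.17 without both libraries numbered 3. *Zeb1*, *Gpm6a* and *Hipk2* had log2 fold changes of -0.10, 0.18 and 0.07.

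*Tubb5* varied most between libraries among the 10 with the highest CPM, at 1321, 419 and 141 CPM in KO NPCs 1 to 3 and at 1181, 391 and 1248 CPM in WT NPCs 1 to 3. It was low in both libraries numbered 2 and lowest in KO NPC 3, and its log2 fold change was -0.58 ± 0.83 (SE; -0.11 without KO NPC 3 and 0.14 without both libraries numbered 3).

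By mean CPM, the very long loci lay above the short loci in each bin from 4 CPM upward and below them in the 2 lowest bins. In the bin of 16 to 32 CPM, for example, the medians were 0.17 (158 very long loci) and -0.08 (978 short loci), and under 2 CPM they were -0.16 (47 loci) and 0.05 (829 loci). With KO NPC 3 left out and WT NPC 3 kept, the medians of very long loci were -0.29, -0.12 and -0.17 in the 3 bins under 8 CPM, which hold 47, 66 and 77 loci, and between -0.00229 and 0.05 in the bins above. With both libraries numbered 3 left out, the medians of these 3 bins were 0.06, 0.01 and 0.05, so that the sign at low CPM depended on whether WT NPC 3 was kept.

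Function was examined with 12 lists of long genes of the nervous system and of transcription, chosen with earlier results of these data known. Over the 12 lists, 0 members passed an adjusted p under 0.05 in the quasi-likelihood test of edgeR, which called 0% of all loci tested. Axon guidance and growth factor signalling had 27 members among the very long loci. Their median log2 fold change was 0.59, with 23 above 0, and KO NPC 3 was the highest library at 17 of them. Leaving out KO NPC 3 gave a median of 0.19 with 17 above 0. Within replicate numbers the median difference was 0.11, 0.15 and 1.10, the largest of the 12 lists in number 3. Of its members 1, *Slit2*, was higher at an unadjusted p under 0.05 in that test, where 0.943% of all loci tested were higher. *Ntrk2*, the receptor of brain-derived neurotrophic factor, was at 430, 363 and 1360 CPM in the KO NPCs and at 573, 477 and 313 CPM in the WT NPCs. *Robo1*, a receptor of SLIT ligands, was at 137, 102 and 422 CPM against 166, 99.4 and 92.9 CPM. Both were highest in KO NPC 3, with log2 fold changes of 0.66 and 0.88, and of -0.20 and 0.000169 without KO NPC 3.

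Adhesion proteins followed. The 19 members of the immunoglobulin superfamily, such as *Ncam1*, *Ncam2* and *Cadm2*, had a median log2 fold change of 0.47, with 17 above 0, and of 0.09 without KO NPC 3, with 10 above 0. *Cadm2*, a synaptic cell adhesion molecule, was at 81.4, 128 and 541 CPM in the KO NPCs and at 56.6, 103 and 83.4 CPM in the WT NPCs, a log2 fold change of 1.62 ± 0.73 (SE; 0.37 without KO NPC 3). The 18 members of the synaptic adhesion list, among them *Adgrl3* and *Adgrb3*, had a median of 0.42 (-0.05 without KO NPC 3, and 0.14 without both libraries numbered 3), with differences of 0.03, 0.19 and 0.61 within numbers 1, 2 and 3, and KO NPC 3 was highest at 14 of them. The 13 cadherins and catenins had a median of 0.08, of 0.04 without KO NPC 3, and of -0.00862 without both libraries numbered 3. The synaptic adhesion list and the list of cadherins and catenins each held 1 member that was higher at an unadjusted p under 0.05. In the same quasi-likelihood test of edgeR 0.943% of all loci tested were higher.

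Transcription and chromatin factors (33 members) had a median of 0.24, of -0.00155 without KO NPC 3, and of 0.02 without both libraries numbered 3. Of the 33 members 1, *Tcf12*, was lower at an unadjusted p under 0.05 (quasi-likelihood test of edgeR), where 0.665% of all loci tested were lower. GTPase regulators (27 members, such as *Trio* and *Dock1*) also had a median of 0.24, and 0.06 without it. Kinases, phosphatases and phosphodiesterases (37 members) stood at 0.16 and 0.05, and cytoskeleton and scaffold proteins (43 members, such as *Ank2*, *Map2* and *Macf1*) at 0.11 and -0.01 (-0.03 without both libraries numbered 3). RNA-binding proteins (9 members, such as *Celf2*, *Fto* and *Rbfox2*) stood at 0.03 and 0.07. Genes in common fragile sites (20 members, such as *Exoc4*, *Ptprg* and *Nbea*), where replication and transcription of very long genes meet, stood at 0.18 and 0.08, with 15 above 0 both with and without KO NPC 3.

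The 22 voltage-gated and calcium channels had a median of 0.13 (-0.11 without KO NPC 3, and 0.04 without both libraries numbered 3), and their median difference within replicate numbers was 0.05, 0.16 and 0.14. The 14 glutamate and GABA receptors had a median of -0.02, with 7 above and 7 below 0 (-0.04 without KO NPC 3, and 0.17 without both libraries numbered 3), and differences of 0.08, 0.39 and -0.56 within numbers 1, 2 and 3. Beside *Grm5*, *Grm3* was lower in KO NPC 3 (51.9 CPM) than in the other 5 libraries (151 to 308 CPM), whereas *Grik3* was higher (242 CPM against 30.8 to 132 CPM). Whether any 2 lists differed was not tested.

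**Figure D5:**
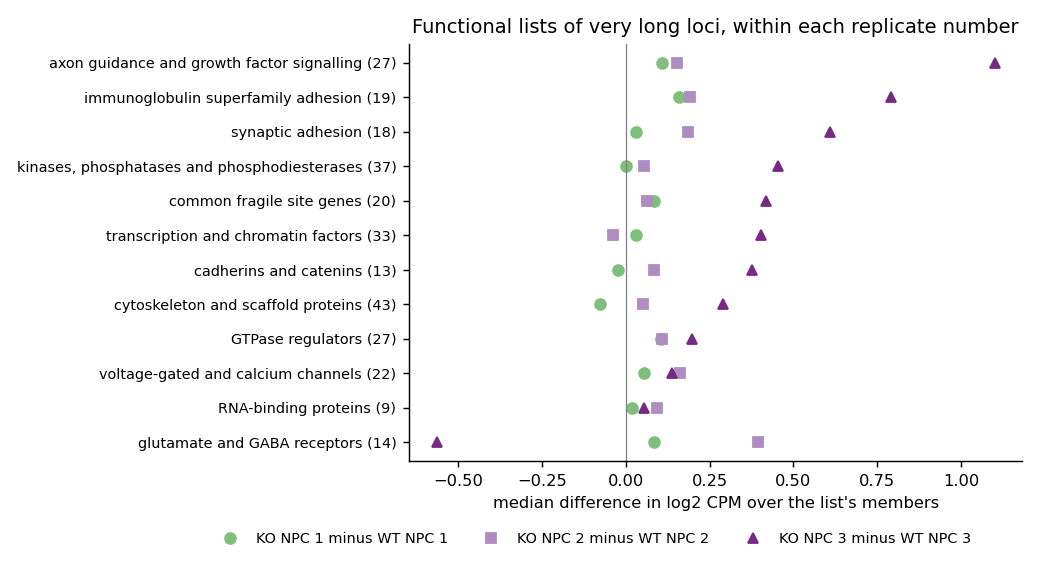
Median difference in log2 CPM between the KO and the WT library of the same number (x axis) over the members of 12 functional lists (y axis, number of members in parentheses), with 1 marker shape per replicate number. Number 3 ran from -0.56 for glutamate and GABA receptors to 1.10 for axon guidance and growth factor signalling, while numbers 1 and 2 lay between -0.08 and 0.39.

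Factors known to act on elongation by Pol II, and on the transcription of long genes, were examined for comparison. Of 33 genes listed, 26 had a locus of their own that was tested, and 1 of these, *Top1*, is itself a very long locus in these data (343437 bases, annotated with 76877). Of the 26, 0 had an unadjusted p under 0.05 in the quasi-likelihood test of edgeR. Of all loci tested 0.943% were higher and 0.665% lower at that limit, so a count of 0 among 26 is near that share. Their log2 fold changes ran from -0.43 (*Aff1*, a scaffold of the super elongation complex) to 0.34 (*Tcea2*, a transcript cleavage factor). The median was -0.02, 0.02 without KO NPC 3, and 0.00378 without both libraries numbered 3. *Top1*, the topoisomerase that relieves supercoils ahead of Pol II, was at 218, 224 and 183 CPM in the KO NPCs and at 219, 227 and 196 CPM in the WT NPCs, a log2 fold change of -0.04 ± 0.15 (SE). *Top2b*, the topoisomerase II of neurons, had a log2 fold change of 0.00427 ± 0.16 (SE), and *Supt5*, a subunit of the DSIF complex, one of -0.00582 ± 0.13 (SE). Numbers of each pair were close to each other in all 3 genes.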

How the data were processed

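RNA was sequenced from 3 KO and 3 WT NPC cultures. Per the labels and the study's methods, the libraries were rRNA-depleted and stranded, and the authors used StringTie, STAR, Trimmomatic, Picard and edgeR on GRCm38 (versions not given in the sources used here). The deposited counts are the authors' unscaled whole-number counts per merged locus. Whether counting used the strand is not given, so reads of overlapping and antisense genes may not be told apart. The log2 values that the authors deposited (log2 CPM and log2 values scaled to *Rn7sk*, with group means) were not used, and their column of summed exonic length served for levels per kb. Members and gene lists were chosen with earlier results of these data known.

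Loci that name no gene (1.31% to 4.89% of counts) were left out. The others were filtered with filterByExpr (minimum count 10, minimum total 15), scaled by TMM and tested together with edgeR's quasi-likelihood test (Benjamini-Hochberg adjustment, threshold 0.05). Printed CPM of single loci used TMM-scaled library sizes, and the selection used the total of all loci. The summed CPM of markers used the counts at loci that name a gene, without TMM scaling. Deviations and differences within replicate numbers are on log2 CPM with a prior count of 2. CPM bins doubled in width from 2 to 512 CPM. Across all loci the deviations of same-numbered KO and WT libraries correlated at r = 0.412, 0.170 and 0.195, and no other pair exceeded 0.0576, so the numbers, described in the study as pairs, were taken to pair the libraries. The reported test used the genotype alone, and only the fits with the replicate block used the pairing. The p values measure the spread between these cultures, which in the reported test includes that between pairs.

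Named loci were the 10 longest, the 10 with the highest CPM, up to 8 in each direction with the smallest unadjusted p, any past an adjusted p of 0.05 in any fit, up to 3 with the highest CPM per list, those at the limits and those detected in 1 genotype only. A few loci that this rule names are not reported here. *Reln*, *Plk1*, *Tpx2*, *Nusap1*, *Tpt1* and the named elongation factors other than the very long *Top1* are outside the rule and were picked after their values were seen. Alternatives were other scalings, filters, tests, length and CPM limits, the replicate block and each library left out. The annotated gene length, with and without KO NPC 3, and both libraries numbered 3 left out were added after seeing the data. The fits were tested on simulated counts with known changes. R 4.3.3, edgeR 4.0.16, limma 3.58.1, DESeq2 1.42.0 and Python 3.11.15 were used.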

Additional observations from a re-analysis of the deposited data

Results flagged for a closer look

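Loci that name no gene, which no comparison used, took 4.89% of the counts of KO NPC 3, above every WT library (1.37% to 1.72%) and above the other KO libraries (1.60% and 1.31%). This is the library in which very long loci took the largest share of counts (8.57%). Whether the 2 shares are related was not tested.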

How the results depend on the processing

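At an adjusted p under 0.05, 0 very long loci were called under every alternative but 1. The replicate block with the likelihood ratio test called 2, of which *Dnah9* was included only through its KO libraries. DESeq2 gave no adjusted p at 8 very long loci. At an unadjusted p under 0.05, 8 were higher in KO NPCs. Each count below is followed by its share of the very long loci and by the share of the loci tested in the reported fit. The 8 became 13 with scaling by total counts (1.41%, 1.05%), 27 with DESeq2 (2.96%, 2.22%), 32 without a filter (3.47%, 2.42%), 18 with the replicate block (1.95%, 1.17%), 14 with the likelihood ratio test (1.52%, 2.07%), 19 with both (2.06%, 1.78%), and 13 at annotated lengths of at least 200 kb without KO NPC 3 (1.81%, 1.08%). The 4 lower ones became 7 without a filter (0.76%, 0.87%), 2 at spans of at least 300 kb (0.408%, 0.665%), 7 at spans of at least 150 kb (0.526%, 0.665%), 16 without both libraries numbered 3 (1.74%, 1.62%), and 12 at annotated lengths of at least 200 kb without KO NPC 3 (1.67%, 1.66%). Leaving out 1 library at a time gave 3 (without WT NPC 3; 0.326%, 0.655%) to 66 (without KO NPC 1; 7.17%, 3.53%) higher and 2 (without WT NPC 3; 0.217%, 0.498%) to 17 (without KO NPC 3; 1.85%, 1.66%) lower. Other removals that moved these counts by over 1.5 times gave 19 higher (2.06%, 2.24%) and 9 lower (0.977%, 0.765%) without KO NPC 2, 15 higher without KO NPC 3 (1.63%, 1.08%) or WT NPC 2 (1.63%, 0.875%), and 10 lower without KO NPC 1 (1.09%, 1.39%). The share higher was thus above that of all loci in several alternatives, most without KO NPC 1, and below it in others. Scaling by the *Rn7sk* count moved the median log2 fold change of all loci tested to -0.26 and that of very long loci to -0.18, while their difference from short loci was 0.16. Under the other planned scalings, filters, limits and tests this difference was 0.14 to 0.20, and 0.17 with the replicate block. Without 1 library the median of the class of 100 to 200 kb ran from 0.00269 to 0.0864 and that of 200 to 400 kb from 0.00386 to 0.0929, both highest without WT NPC 2. The cause of these shifts was not tested.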

Other observations

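Loci that merge several gene names were not part of the comparison. At least 200 kb long and detected were 229 of them, with a median log2 fold change of 0.07, 130 of them (56.8%) above 0, and a median of 0.03 without KO NPC 3.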
